A study of Mus musculus with 6 samples.

Results

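The genes described here encode the centromere, the kinetochore built on it and the chromosomal passenger complex, 43 genes among the 55487 gene identifiers counted in this series. They were taken by name: every mouse symbol made of Cenp and one letter from a to x, the genes Ska1 to Ska3, and 20 further genes named singly. Of the Cenp names, 20 had a row, whereas 4 (Cenpc, Cenpd, Cenpg and Cenpr) matched no symbol in the table. CENP-C and CENP-R have rows under other symbols, Cenpc1 and Itgb3bp, which the naming rule did not hold. The naming rule also takes in Cenpj, which encodes a centrosome protein that works on centrioles.

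Bulk RNA-sequencing was performed on primary cells that the labels call skin endothelial cells (ECs), from C57BL/6 mice. Per the methods, cells were isolated with CD31 MicroBeads from the skin of 4 to 6 mice aged 2 to 3 months, and used at passages 1 to 6. One group was kept for 48 hours in normal-glucose medium (5 mmol/L) and the other in high-glucose medium (20 mmol/L), with 3 samples in each. The legends count the replicates as mice, whereas the methods take several mice for an isolation, and no source ties a sample to its mice or to an isolation of its own. If the samples share an isolation, P values measure only the spread between these samples. The comparison asks how the genes differ in these cells under a glucose concentration meant to resemble that of diabetes.

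The centromere is the stretch of chromosome marked by nucleosomes with the histone variant CENP-A, and the kinetochore is the protein assembly that links it to spindle microtubules. An inner layer, the constitutive centromere-associated network (CCAN), sits on CENP-A chromatin, and an outer layer of the Knl1, Mis12 and Ndc80 complexes binds microtubules during mitosis. The spindle checkpoint signals from unattached kinetochores, and the chromosomal passenger complex corrects faulty attachments through its kinase, Aurora B. Transcripts of many of these genes are made chiefly in cells that pass through G2 and mitosis, while some of the proteins also serve in interphase.

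The 6 samples held between 120192466 and 146881356 counts, and all 43 genes passed the filter on low counts, with at least 68 counts in every sample. Levels are given below in CPM, which are counts per 1000000 after TMM (trimmed mean of M values) scaling, and those set between genes in CPM per kilobase of exon. The counts may include both reads of a pair, and counts halved for that reason gave 34 lower genes where the counts as deposited gave 32. Over all genes tested, 3047 of 17267 were lower with halved counts and 2757 of 19015 with the counts as deposited. Of the 14 endothelial markers, Sox17 had 0 counts in all samples, Tie1 reached 2 counts, Cldn5 reached 4 and Emcn reached 9, and Pecam1, which encodes CD31, had between 9 and 19. Erg had between 2 and 15 counts and Esam between 12 and 23. Several defining markers of the labelled cell type were thus at or near 0, whereas others were detected. Vwf had between 73 and 144 counts, Cdh5 between 91 and 242 and Tek between 151 and 302. Kdr had between 576 and 777 counts and Egfl7 between 1113 and 1464. Summed over the list, endothelial markers lay between 215 and 243 CPM in normal and between 194 and 200 CPM in high glucose (3 of the 10 tested were called lower and 2 higher). Most of this sum came from Eng (mean 155 CPM in normal and 140 CPM in high glucose) and Flt1 (55.3 and 38.4 CPM). The lower markers were Cdh5, Flt1 and Egfl7 (log2 fold changes -1.03, -0.53 and -0.23), and the higher ones Tek and Erg (0.66 and 1.45). The 10 fibroblast markers summed to between 38292 and 41455 CPM in normal and between 70622 and 75577 CPM in high glucose, 9 of them called higher and 1 lower, and none was at 0. The 6 mural markers summed to between 515 and 611 CPM in normal and between 570 and 617 CPM in high glucose (2 lower, 1 higher). The 4 keratinocyte markers summed to between 2.07 and 2.87 CPM in normal and between 2.21 and 2.45 CPM in high glucose (0 of the 2 tested lower, 1 higher). The 5 macrophage markers summed to between 8.33 and 9.35 CPM in normal and between 5.72 and 6.52 CPM in high glucose, with 2 of the 3 tested called lower. Most of the mural sum came from Pdgfrb, of the keratinocyte sum from Krt10 and of the macrophage sum from Csf1r. The part of these cell type markers in the results below was not tested.

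High glucose was accompanied by lower transcript levels of most centromere and kinetochore genes. Of the 43 genes, 32 were lower, 1 (Cenpv) was higher and 10 were not called, at an edgeR quasi-likelihood adjusted P value under 0.05. Over all 19015 genes tested, 14.5% were called lower and 16.9% higher (31.4% in either direction). The median log2 fold change, high against normal glucose, was -0.83 over the 43 genes and 0.01 over all genes tested. Fold changes of the 32 lower genes ranged from -1.36 to -0.34 on the log2 scale, and 13 of them were at -1 or below, as were 2.85% of all genes tested. A called rise of 1 or more was seen in 0 of the 43 genes (2.08% of all genes tested), since that of Cenpv was 0.58. The 2 groups did not overlap in 37 genes with high glucose lower, as in 21.3% of all genes tested, and in 2 genes (Cenpj and Cenpv) with high glucose higher, as in 25.1%. In bulk RNA, fewer dividing cells and less of these transcripts per cell cannot be told apart.

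**Figure D1:**
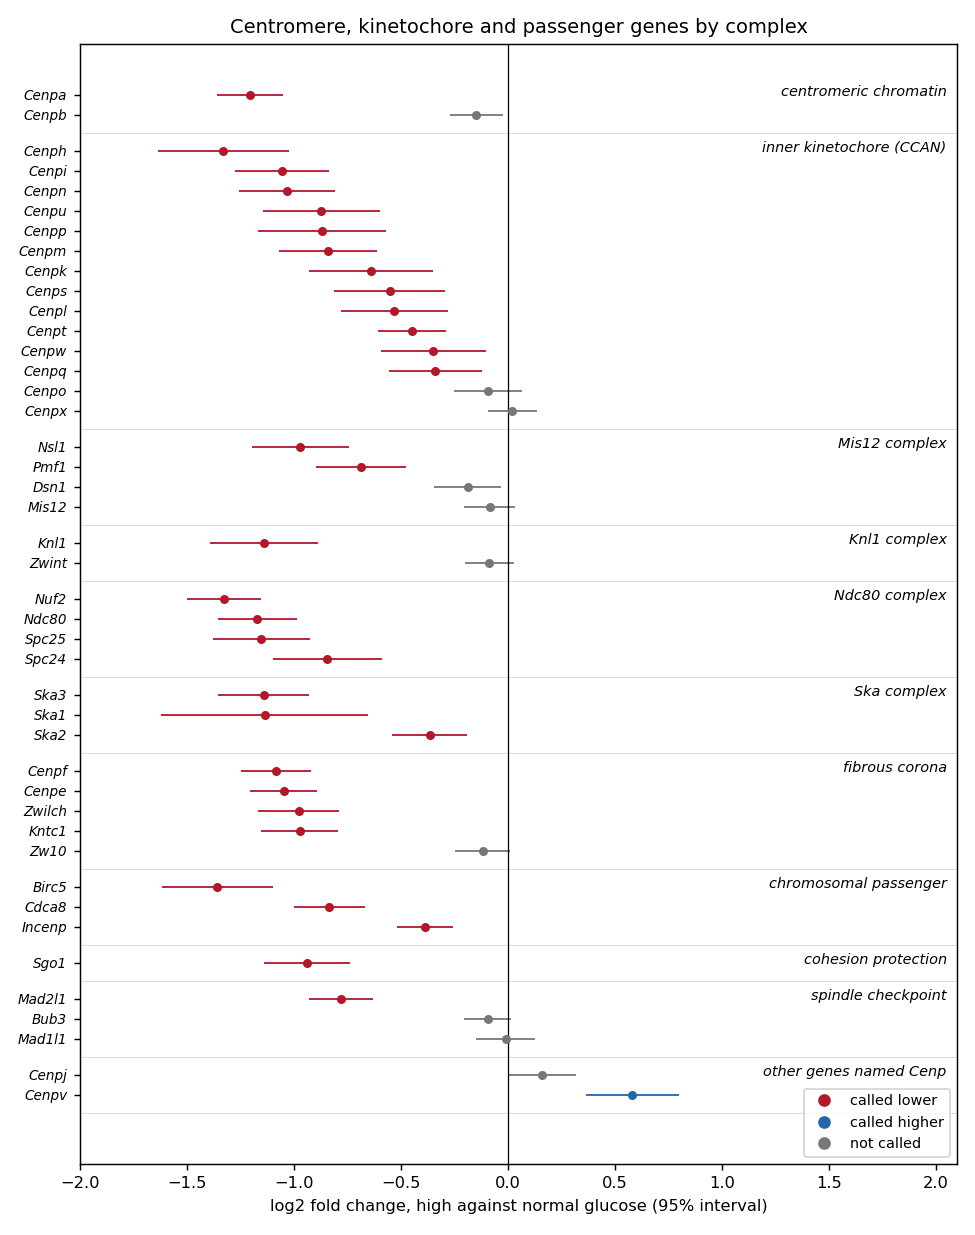
Log2 fold change of each of the 43 genes, high against normal glucose (x axis), in rows grouped by complex (y axis), with points for edgeR estimates and bars for 95% intervals (n = 3 samples per group). All 4 Ndc80 complex genes and all 3 passenger genes were lower, whereas the Mis12, Knl1 and corona groups each hold genes near 0, which were called lower only when samples were scaled by library size alone or, for Dsn1, under some other settings.

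The samples of each group lay close together. The coefficient of variation among the 3 samples had a median over the 43 genes of 5.43% in normal and 4.71% in high glucose. The genes' summed level was 871, 823 and 861 CPM in normal and 705, 702 and 693 CPM in high glucose, a sum to which the abundant Cenpb and Zwint contributed much. Taken gene by gene against the normal-glucose mean, the median log2 level of the 3 high-glucose samples was -0.79, -0.79 and -0.78. For the normal-glucose samples this median was 0.04, -0.02 and -0.003. Normal-glucose replicate 1 was the highest of its group in 23 of the 43 genes, against 9 and 11 for replicates 2 and 3.

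Since most of the genes were lower together, the DNA upstream of some start sites is given first. Of the 43 genes, 38 had 1 or more start sites in the RefSeq promoter table (build GRCm38.p6), 43 sites in all, and Incenp, Nsl1, Ska1, Spc24 and Zwilch had none. The 250 bases before each start were searched on both strands for TTTGAA (the cell cycle genes homology region, CHR, which is TTCAAA on the other strand), CCAAT (bound by NF-Y), TAAACA (a forkhead core) and GGCGGGAA (an E2F site). CCAAT was found in 51.2% of the genes' promoters and in 33.9% of all promoters in the table. Counted once per gene, it was found in 18 of the 38 genes (47.4%) and in 37.5% of all genes in the table. TTTGAA was found in 20.9% and 16.0%, TAAACA in 14.0% and 12%, and GGCGGGAA in 4.65% and 1.86%. Of the promoters of lower genes, 16 of 29 held CCAAT, 6 held TTTGAA, 6 held TAAACA and 0 held GGCGGGAA. Of the promoters of genes that were not called, 6 of 13 held CCAAT, 3 held TTTGAA, 0 held TAAACA and 2 held GGCGGGAA. Some genes have several starts, and once per gene CCAAT was before 14 of 27 lower genes and 4 of 10 not called, and TTTGAA before 6 and 2. Within 50 bases of the start, a distance chosen after the positions had been seen, TTTGAA lay in 4 of the 29 promoters of lower genes, in 1 of the 13 of genes not called (Bub3) and in 2.63% of all promoters.

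The sequences below are the 120 bases before the start, written 5′ to 3′ on the gene's strand, with the searched motifs in capitals. The first 4 are the lower genes with TTTGAA near the start, followed by the lower genes Spc25, with a pair of CCAAT motifs, and Birc5, which had the lowest log2 fold change and none of the motifs, and by Mis12 and Zwint, which were not called. In Kntc1 and Cenpw the CCAAT and TTCAAA motifs overlap by 1 base. GENCODE places the gene start further upstream than RefSeq by 10 bases in Cenpn and Kntc1, 22 in Ska3, 20 in Cenpw and 1 in Zwint.
Cenpn, chr8:116921620-116921739, plus strand, GRCm38.p6: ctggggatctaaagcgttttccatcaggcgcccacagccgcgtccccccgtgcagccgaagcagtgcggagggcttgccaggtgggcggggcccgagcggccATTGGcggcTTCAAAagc
Kntc1, chr5:123749606-123749725, plus strand, GRCm38.p6: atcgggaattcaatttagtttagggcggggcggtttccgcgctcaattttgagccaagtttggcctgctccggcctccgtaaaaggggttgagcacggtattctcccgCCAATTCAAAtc
Ska3, chr14:57826164-57826283, minus strand, GRCm38.p6: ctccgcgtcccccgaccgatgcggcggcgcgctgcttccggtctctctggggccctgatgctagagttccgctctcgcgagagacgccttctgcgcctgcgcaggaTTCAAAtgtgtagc
Cenpw, chr10:30200541-30200660, minus strand, GRCm38.p6: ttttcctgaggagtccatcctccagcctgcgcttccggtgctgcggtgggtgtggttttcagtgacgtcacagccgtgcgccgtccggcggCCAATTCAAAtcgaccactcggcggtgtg
Spc25, chr2:69206214-69206333, minus strand, GRCm38.p6: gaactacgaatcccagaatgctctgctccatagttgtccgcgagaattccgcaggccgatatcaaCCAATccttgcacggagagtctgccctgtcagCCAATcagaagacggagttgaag
Birc5, chr11:117849117-117849236, plus strand, GRCm38.p6: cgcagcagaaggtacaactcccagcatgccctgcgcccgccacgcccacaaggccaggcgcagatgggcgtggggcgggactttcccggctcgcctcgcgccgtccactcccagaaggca
Mis12, chr11:71019491-71019610, plus strand, GRCm38.p6: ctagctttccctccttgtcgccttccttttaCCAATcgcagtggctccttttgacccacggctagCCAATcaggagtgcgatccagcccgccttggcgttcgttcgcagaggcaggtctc
Zwint, chr10:72654726-72654845, plus strand, GRCm38.p6: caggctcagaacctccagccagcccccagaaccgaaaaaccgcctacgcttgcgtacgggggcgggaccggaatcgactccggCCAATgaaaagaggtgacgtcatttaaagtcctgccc

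CCAAT thus stands before lower genes and before genes not called, since Mis12 and Zwint carry it as Spc25 does. TTTGAA was also found in both sets. TAAACA was found before lower genes alone (6 of 29 promoters, beside 12% of all promoters). GGCGGGAA was found before genes not called alone (2 of 13, beside 1.86%). Once per gene, TAAACA was before 6 of 27 lower genes and 0 of 10 not called, beside 13.5% of all genes in the table. GGCGGGAA was before 0 of 27 and 2 of 10, beside 2.13%. These differences were not tested. A match of letters is a description of the sequence and not of a bound factor.

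At the centromere itself, the 2 chromatin proteins differed. Cenpa, the histone H3 variant that marks the centromere (chromosome 5, 30666777 to 30674830, GRCm38), was at 14.7, 14.1 and 15.2 CPM in normal and 6.59, 6.09 and 6.40 CPM in high glucose. All high-glucose samples lay beneath the normal-glucose ones, and the level fell by 56.6% (edgeR log2 fold change -1.21 ± 0.07 SE, adjusted p = 8.46e-07). Cenpb, which binds a short motif in centromeric satellite DNA, was at 266, 245 and 273 CPM in normal and 238, 239.8 and 230.2 CPM in high glucose. Its groups did not overlap either, yet the difference was small and was not called (edgeR log2 fold change -0.15 ± 0.06 SE, adjusted p = 0.0709). Without normal-glucose replicate 2, Cenpb was called lower (log2 fold change -0.20, edgeR adjusted p = 0.0152), and it was also called with DESeq2 and under some other scalings and filters.

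Genes for loading CENP-A into chromatin, which the naming rule did not hold, were lower as well. Oip5 and Mis18a, subunits of the complex that licenses new CENP-A deposition, had log2 fold changes of -0.96 (edgeR adjusted p = 0.00136) and -0.31 (edgeR adjusted p = 0.0467). Hjurp, the chaperone of CENP-A, had -0.26 (edgeR adjusted p = 0.00589).

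In the CCAN, 12 of 14 genes in the rule were lower and 2 not called, with a median log2 fold change of -0.60. Outside the rule, Cenpc1 (CENP-C) and Itgb3bp (CENP-R) of the CCAN were not called either (edgeR log2 fold changes -0.06 and -0.24, adjusted p = 0.551 and 0.328). The best-known CCAN subassemblies are a CENP-H, I, K and M group and a CENP-L and N pair. Others are a CENP-O, P, Q, R and U group and the histone-fold proteins CENP-T, W, S and X. Cenph had the lowest log2 fold change of the layer and was at 3.99, 3.12 and 2.87 CPM in normal and 1.24, 1.39 and 1.34 CPM in high glucose, with the groups apart (edgeR log2 fold change -1.33 ± 0.14 SE, adjusted p = 4.96e-05). Its partners Cenpi, Cenpm and Cenpk were lower too, with log2 fold changes of -1.06, -0.84 and -0.64. Cenpn, whose protein recognises the CENP-A nucleosome, was at 4.94, 5.44 and 5.06 CPM in normal and 2.79, 2.35 and 2.41 CPM in high glucose (edgeR log2 fold change -1.03 ± 0.10 SE, adjusted p = 3.16e-05). Its partner Cenpl had a log2 fold change of -0.53 (edgeR adjusted p = 0.00512).

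The remaining CCAN genes of the naming rule were split. Cenpu and Cenpp had log2 fold changes of -0.87 and -0.87 and Cenpq of -0.34, whereas Cenpo was not called and its groups overlapped (edgeR log2 fold change -0.09 ± 0.07 SE, adjusted p = 0.354). These values carry a limit of counting, because exons of Cenpo share 19.0% of their bases with Adcy3, those of Cenpu 26.7% with Primpol and those of Cenpp 12.3% with Ippk, on opposite strands, and whether counting used the strand is not given in the sources used here. Among the histone-fold genes, Cenpt, Cenps and Cenpw were lower with log2 fold changes of -0.45, -0.55 and -0.35. Cenpx was at 20.3, 19.4 and 20.0 CPM in normal and 20.5, 20.1 and 20.0 CPM in high glucose, with overlapping groups (edgeR log2 fold change 0.02 ± 0.05 SE, adjusted p = 0.799). Cenps and Cenpx proteins also work as a pair in the Fanconi anemia DNA repair pathway.

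With the threshold of 0.05 and no minimum fold change, Cenpw and Cenpq were the lower genes whose call did not hold under every alternative fit. The Cenpw call was lost without any 1 sample other than normal-glucose replicate 2, with edgeR adjusted p between 0.0571 and 0.108, and without the filter on low counts (adjusted p = 0.0513), among other settings. The Cenpq call was lost without normal-glucose replicate 3 (edgeR adjusted p = 0.0620) and without high-glucose replicate 1 (adjusted p = 0.0926).

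In the Mis12 complex, the base that ties the outer kinetochore to the CCAN, 2 of 4 genes were lower. Nsl1 was at 3.94, 3.82 and 3.38 CPM in normal and 1.85, 1.95 and 1.89 CPM in high glucose, with no overlap (edgeR log2 fold change -0.97 ± 0.10 SE, adjusted p = 5.12e-05). Pmf1 was lower as well (log2 fold change -0.69). Mis12 itself was at 41.2, 38.9 and 40.2 CPM in normal and 36.7, 39.5 and 37.3 CPM in high glucose, so its groups overlapped (edgeR log2 fold change -0.08 ± 0.05 SE, adjusted p = 0.258). Dsn1 lay between 8.35 and 8.78 CPM in normal and between 7.43 and 7.64 CPM in high glucose, apart but not called (edgeR log2 fold change -0.19 ± 0.07 SE, adjusted p = 0.0663). Without normal-glucose replicate 1, Dsn1 was called lower (log2 fold change -0.22, edgeR adjusted p = 0.0361), and it was also called under some other scalings and filters.

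The Knl1 complex showed a wide contrast between partners. Knl1, the scaffold that carries the checkpoint proteins, was at 4.94, 6.44 and 5.62 CPM in normal and 2.74, 2.42 and 2.56 CPM in high glucose, and its level fell by 54.6% (edgeR log2 fold change -1.14 ± 0.11 SE, adjusted p = 3.70e-05). Zwint, its binding partner, was at 136, 125 and 128 CPM in normal and 122, 123 and 121 CPM in high glucose. The high-glucose samples lay just below the lowest normal-glucose sample, a difference that was not called (edgeR log2 fold change -0.09 ± 0.05 SE, adjusted p = 0.229).

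All 4 genes of the Ndc80 complex, the rod-shaped coupler that grips microtubules, were lower, with a median log2 fold change of -1.16. Nuf2 was at 12.8, 11.4 and 11.8 CPM in normal and 4.70, 4.91 and 4.79 CPM in high glucose (edgeR log2 fold change -1.33 ± 0.08 SE, adjusted p = 8.59e-07). Ndc80 and Spc25 had log2 fold changes of -1.17 and -1.15. Spc24, at the end of the rod that faces the chromosome, was at 5.08, 3.92 and 4.55 CPM in normal and 2.65, 2.55 and 2.34 CPM in high glucose (edgeR log2 fold change -0.84 ± 0.11 SE, adjusted p = 0.000321). In each of the 4 genes the groups were apart, and high-glucose levels were between 39.9% and 55.8% of those in normal glucose.

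The Ska complex, which helps the kinetochore hold on to shortening microtubules, had 3 of 3 genes lower. Ska3 was at 4.09, 4.24 and 4.23 CPM in normal and 1.97, 1.76 and 1.95 CPM in high glucose (edgeR log2 fold change -1.14 ± 0.10 SE, adjusted p = 1.09e-05). Ska1 had a log2 fold change of -1.14 with the widest standard error of the 43 genes (0.22), and normal-glucose replicate 1 was its highest sample at 1.85 CPM, against 1.25 and 1.14 CPM in the other two. Without that replicate the log2 fold change was -0.91 and was still called. Ska2 was at 9.12, 8.57 and 8.0 CPM in normal and 6.66, 6.63 and 6.64 CPM in high glucose (edgeR log2 fold change -0.37 ± 0.08 SE, adjusted p = 0.00518), and 10.1% of its exon bases are shared with the antisense gene Gm11491, which had 8 counts in all samples together.

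**Figure D2:**
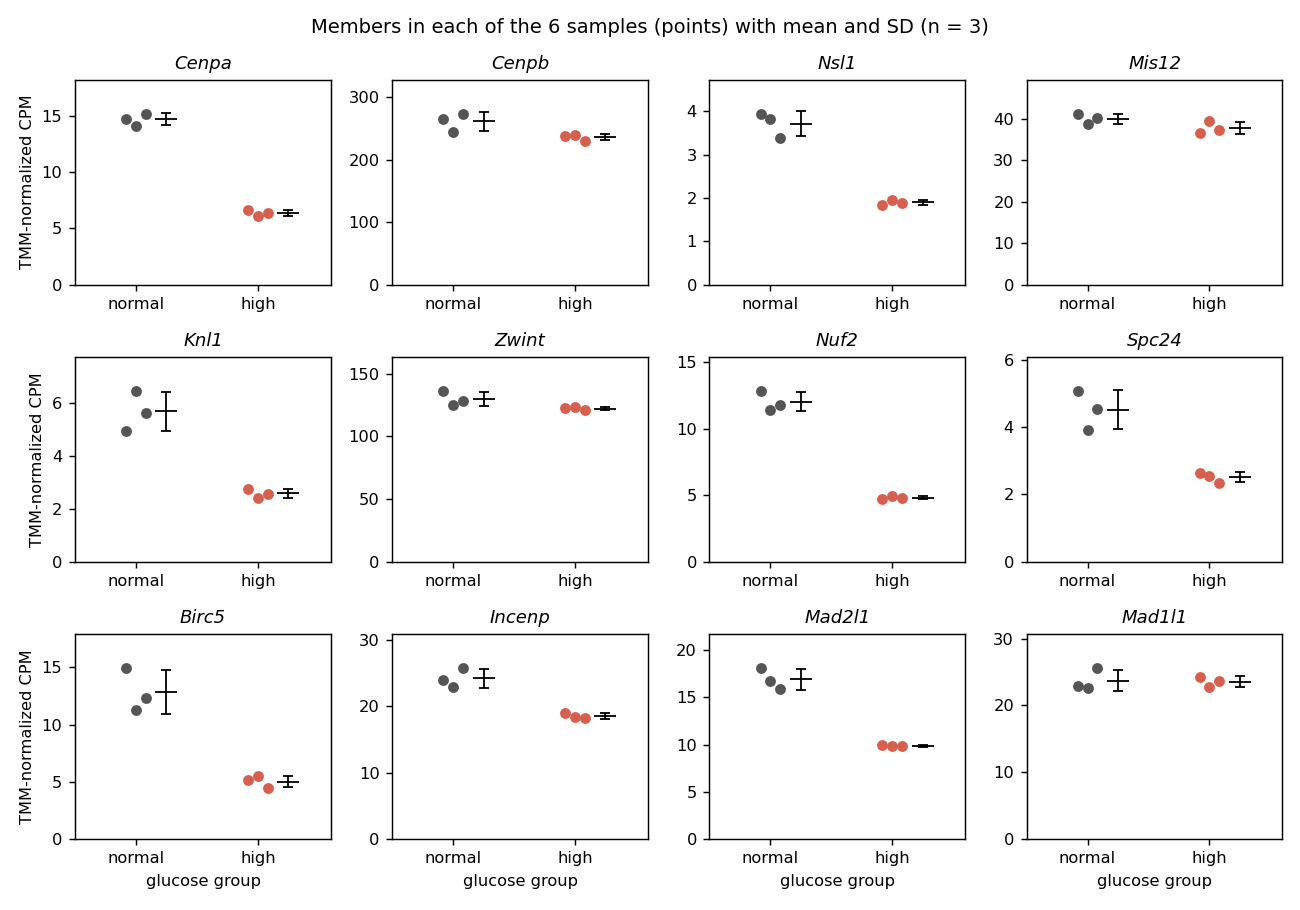
Level of 12 of the genes in each sample, in TMM-normalized CPM (y axis, from 0), for 3 normal-glucose (gray) and 3 high-glucose (red) samples, with the mean and SD (n = 3) beside the points. Cenpa, Nsl1, Knl1, Nuf2, Birc5 and Mad2l1 fell, and Cenpb, Mis12, Zwint and Mad1l1 were not called with TMM scaling, although scaling by library size alone called Cenpb, Mis12 and Zwint lower.

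In the fibrous corona, the outermost layer that captures microtubules, 4 of 5 genes were lower. Cenpf, which encodes a large coiled-coil protein of the corona, was at 14.9, 15.2 and 13.8 CPM in normal and 7.08, 7.10 and 6.48 CPM in high glucose (edgeR log2 fold change -1.08 ± 0.07 SE, adjusted p = 2.56e-06). Cenpe, a kinesin motor that moves chromosomes to the spindle equator, had a log2 fold change of -1.05. Zwilch, Kntc1 and Zw10 form the RZZ complex, which brings dynein and checkpoint proteins to the corona, and their values parted. Zwilch and Kntc1 had log2 fold changes of -0.98 and -0.97. Zw10, whose protein also takes part in membrane traffic between the endoplasmic reticulum and the Golgi, was at 20.8, 19.9 and 19.0 CPM in normal and 18.5, 17.9 and 18.6 CPM in high glucose, a difference that was not called (edgeR log2 fold change -0.12 ± 0.06 SE, adjusted p = 0.147).

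All 3 chromosomal passenger genes were lower, by unequal amounts. Birc5, which encodes survivin and lies on chromosome 11 (117849251 to 117855743, GRCm38), was at 15.0, 11.3 and 12.3 CPM in normal and 5.11, 5.46 and 4.47 CPM in high glucose. This was the lowest log2 fold change among the 43 genes, a level that fell by 61.0% (edgeR log2 fold change -1.36 ± 0.12 SE, adjusted p = 1.31e-05). Cdca8, which encodes borealin, had a log2 fold change of -0.83. Incenp, the scaffold that binds the kinase, was at 24.0, 22.9 and 25.8 CPM in normal and 19.0, 18.3 and 18.2 CPM in high glucose. Its groups were apart and its level fell by 23.5% (edgeR log2 fold change -0.39 ± 0.06 SE, adjusted p = 0.000721).

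Sgo1, shugoshin, which protects cohesin at the centromere until anaphase, was at 4.85, 4.60 and 4.53 CPM in normal and 2.53, 2.31 and 2.45 CPM in high glucose (edgeR log2 fold change -0.94 ± 0.09 SE, adjusted p = 2.98e-05). Of the 3 checkpoint genes, only Mad2l1 was lower with TMM scaling, and Bub3 joined it when samples were scaled by library size alone. Mad2l1, whose protein inhibits the anaphase-promoting complex, was at 18.1, 16.7 and 15.9 CPM in normal and 9.97, 9.80 and 9.82 CPM in high glucose (edgeR log2 fold change -0.78 ± 0.07 SE, adjusted p = 1.40e-05). Mad1l1, which holds Mad2 at the kinetochore, was at 22.9, 22.6 and 25.6 CPM in normal and 24.3, 22.7 and 23.6 CPM in high glucose, with overlapping groups (edgeR log2 fold change -0.01 ± 0.06 SE, adjusted p = 0.914). Bub3, which brings the Bub1 kinases to Knl1, lay between 74.9 and 76.7 CPM in normal and between 68.4 and 73.2 CPM in high glucose, apart but not called (edgeR log2 fold change -0.10 ± 0.05 SE, adjusted p = 0.176).

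The 2 remaining genes, Cenpv and Cenpj, belong to none of these complexes. Cenpv, which encodes centromere protein V, was at 2.48, 2.22 and 2.35 CPM in normal and 3.57, 3.29 and 3.66 CPM in high glucose, and the level of each high-glucose sample was above that of each normal-glucose sample (edgeR log2 fold change 0.58 ± 0.10 SE, adjusted p = 0.00129). Cenpj lay between 10.2 and 11.6 CPM in normal and between 11.7 and 12.6 CPM in high glucose, apart but not called (edgeR log2 fold change 0.16 ± 0.07 SE, adjusted p = 0.118).

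Ratios of subunits of the same complex do not depend on how the samples were scaled. The 14 ratios were chosen by complex, with earlier results of these data known, and restate the fold changes above as differences between 2 genes. The log2 ratio of counts was compared between groups with a two-sided exact permutation test over the 6 samples. With 3 against 3 its p cannot go below 0.1. The groups were apart in 11 ratios, with high glucose lower in 10 and higher in 1, and overlapped in 3. The 11 separated ratios each had an exact p = 0.1, the smallest possible, and 0.127 after Benjamini-Hochberg adjustment over the 14. Differences were large beside the spread for Birc5 to Incenp, where the mean log2 ratio went from -0.92 in normal to -1.89 in high glucose. It went from -3.44 to -4.32 for Nsl1 to Mis12.

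The same held within RZZ and between the Mad proteins. The log2 ratio of Zwilch to Zw10 was lower by 0.86 and that of Kntc1 to Zw10 by 0.85, and that of Mad2l1 to Mad1l1 by 0.77. Within the Ndc80 complex, Spc25 to Ndc80 differed by 0.02 with overlapping groups (exact p = 0.7), Nuf2 to Ndc80 by -0.15 and Spc24 to Ndc80 by 0.33. In every high-glucose sample Spc24 was thus higher relative to Ndc80 than in any normal-glucose sample. Cenpw to Cenpt and Dsn1 to Mis12 had overlapping groups as well, each with an exact p = 0.2.

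**Figure D3:**
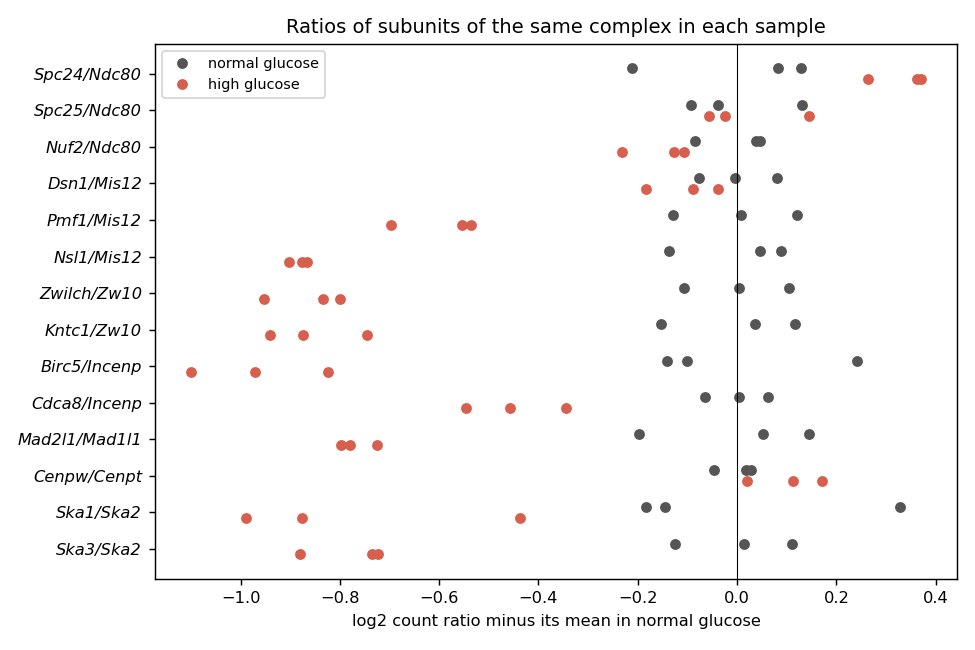
Log2 ratio of the counts of 2 subunits of a complex in each sample, minus its mean in normal glucose (x axis), for 14 ratios (y axis), with normal-glucose samples in gray and high-glucose samples in red. Within the Ndc80 complex the ratio of Spc25 overlaps between groups, that of Nuf2 is slightly lower and that of Spc24 higher in high glucose. In those of Nsl1 to Mis12, Zwilch or Kntc1 to Zw10, Birc5 to Incenp and Mad2l1 to Mad1l1 every high-glucose sample lies far to the left of the normal-glucose samples.

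Most of the genes that were not called were abundant. In normal glucose the 6 genes with the highest level per kilobase of exon were Cenpb (53.5 CPM per kb), Zwint (29.3), Cenpx (18.5), Mis12 (13.4), Bub3 (10.8) and Mad1l1 (6.50), and none of them was called with TMM scaling, whereas scaling by library size alone called Cenpb, Zwint, Mis12 and Bub3 lower. Incenp was next at 5.59 CPM per kb. The median level was 8.66 CPM per kb over the 10 genes not called and 1.55 CPM per kb over the 32 lower genes, which reached from 0.287 (Cenpk) to 5.59 CPM per kb (Incenp). Their estimates were also the more precise: the 6 most abundant had standard errors between 0.05 and 0.06 on the log2 scale, against a median of 0.10 for the lower genes. Over the 43 genes the log2 fold change and this level had a Spearman correlation of 0.38, given without a test because genes share the same 6 samples.

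**Figure D4:**
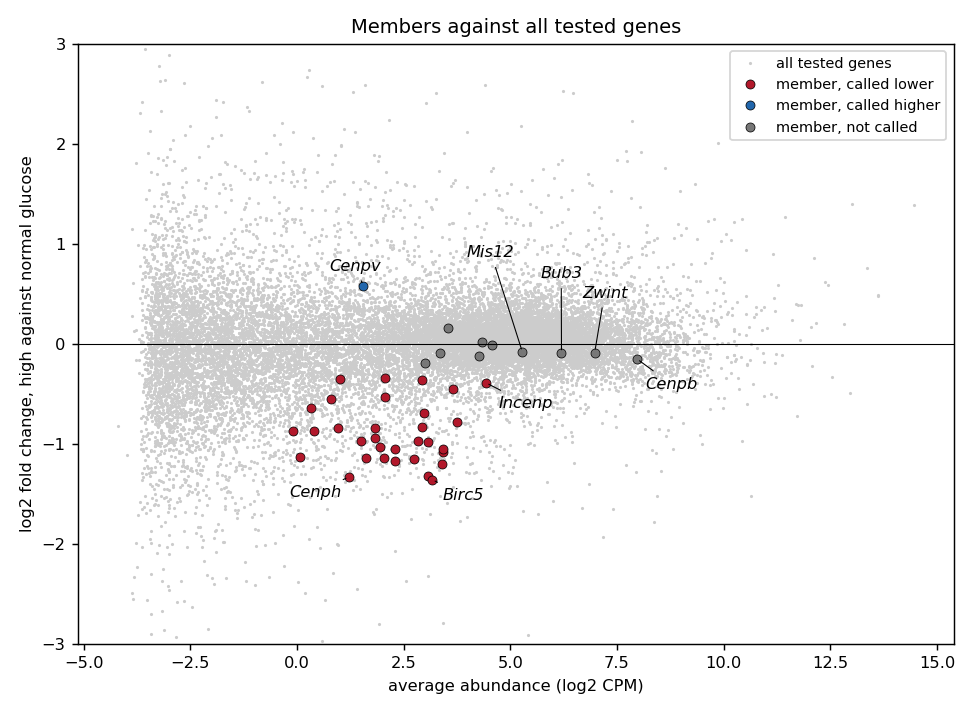
Log2 fold change, high against normal glucose (y axis), against average abundance in log2 CPM (x axis) for the genes tested (gray dots, those beyond 3 on either side not drawn) and the 43 genes (large points, red for lower, blue for higher, gray for not called with TMM scaling). The lower genes lie at moderate abundance, and Cenpb, Zwint, Bub3 and Mis12 lie to their right near 0, where scaling by library size alone called each of them lower.

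The genes that work with the kinetochore but lie outside the naming rule were read from 6 lists of 59 genes, all tested. Of these, 26 were lower (44.1%, against 14.5% of all genes tested) and 4 were higher (6.78%, against 16.9%), with a median log2 fold change of -0.15 beside 0.01 over all genes tested. All 6 kinetochore kinases were lower. Bub1 and Ttk, the checkpoint kinases, both had a log2 fold change of -1.33, Plk1 had -1.14, Bub1b -0.92 and Haspin -0.56. Aurkb, the enzyme of the passenger complex, was at 10.9, 11.8 and 11.9 CPM in normal and 6.03, 5.26 and 5.77 CPM in high glucose (edgeR log2 fold change -1.02 ± 0.08 SE, adjusted p = 7.95e-06). Its fold change lay between those of Birc5 and Cdca8.

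Among the other kinetochore genes, 4 of 8 were lower. Cdc20, the activator of the anaphase-promoting complex that Mad2 inhibits, was at 23.0, 19.8 and 22.9 CPM in normal and 9.67, 8.57 and 8.81 CPM in high glucose (edgeR log2 fold change -1.28 ± 0.08 SE, adjusted p = 1.29e-06). Spdl1, the dynein adaptor at the corona, had a log2 fold change of -1.13, Trip13, which remodels Mad2, of -1.05, and Sgo2a, the second shugoshin, of -1.02. Cenpc1, the scaffold of the CCAN, was at 23.1, 21.8 and 20.6 CPM in normal and 19.7, 22.4 and 20.8 CPM in high glucose, with overlapping groups (edgeR log2 fold change -0.06 ± 0.07 SE, adjusted p = 0.551). Itgb3bp, which encodes CENP-R of the CCAN, was not called, and neither were Bod1 and Mad2l1bp.

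The complexes that shape and release chromosomes were read in the same way, with no test between them. Of the 8 condensin genes 5 were lower, among them Ncapd2 (-0.55), Ncaph (-0.86) and Smc2 (-0.71), while Smc4, Ncapd3 and Ncaph2 were not called. Of the 15 cohesin genes 3 were lower and 3 higher, shares near those over all genes tested. The lower ones were Esco2 (-1.25), the acetyltransferase that locks cohesin in S phase, Cdca5 (-0.96), which encodes sororin, and Espl1 (-0.66), which encodes separase. The cohesin ring genes Smc1a, Smc3 and Rad21 had log2 fold changes of 0.04, 0.04 and -0.05 and were not called. Nipbl and Mau2, which load cohesin, and Pds5b were higher (0.42, 0.22 and 0.26). The calls of higher genes depended on the setting: 1 gene of the 6 lists rather than 4 was higher when samples were scaled by library size alone, and 2 were higher without normal-glucose replicate 3, high-glucose replicate 1 or high-glucose replicate 3.

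Among all genes tested, 14.5% were lower and 16.9% higher. Of the 18 genes of the anaphase-promoting complex and its partners, 4 were lower (22.2%) and 1 was higher (5.56%). Ube2c, its ubiquitin-conjugating enzyme, was at 14.3, 13.8 and 14.4 CPM in normal and 6.36, 6.19 and 5.90 CPM in high glucose (edgeR log2 fold change -1.20 ± 0.07 SE, adjusted p = 7.83e-07), and Fbxo5, its inhibitor, had a log2 fold change of -0.78. Ube2s and Cdc27 were lower by less (-0.31 and -0.21), and the core subunit Anapc1 was higher (0.28). For comparison, the general proliferation genes Top2a and Mki67 had log2 fold changes of -0.88 and -0.75. Of the 43 genes, 17 had a log2 fold change below that of Top2a and 23 below that of Mki67, differences that were not tested.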

How the data were processed

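Poly(A) RNA from 6 samples was sequenced, and the groups and replicate numbers were taken from the labels. The authors trimmed reads with Trimmomatic, aligned them to GRCm38 (mm10) with HISAT2 and tallied them per gene with StringTie, and they deposited unnormalized whole-number counts for each gene and sample. Tool versions and the annotation release are not given in the sources used here, and the labels and the methods name different kits and sequencers. A symbol was found for 55141 identifiers, and 0.034% of the counts fell on those without one.

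From the deposited counts, edgeR 4.0.16 (R 4.3.3) removed weakly counted genes by filterByExpr's defaults (10 counts per sample, 15 in total), scaled by TMM and ran the quasi-likelihood test on group alone, with Benjamini-Hochberg adjustment over all 19015 genes tested and a threshold of 0.05. The biological coefficient of variation was 8.44%. Standard errors and 95% intervals came from the test statistic. The fit was also run on simulated counts drawn independently for each sample. Such counts cannot show what a shared isolation would do to the P values. No pair of replicates looked like 1 library deposited again (the chi-square of their counts was at least 9.76 times its degrees of freedom). Exon lengths, gene positions and exon overlaps came from GENCODE for GRCm38, and promoters from RefSeq.

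The genes, the pathway lists, the marker lists and the ratios were chosen with earlier results of these data known. Every gene of the naming rule is accounted for, and the values of each sample are given for the genes with the lowest and highest fold change of each complex, with a few more added after their values were seen. One gene of the pathway lists is counted in their totals and not reported here. The promoters printed were also chosen after their motifs were seen. Alternatives were other scalings, DESeq2 1.42.0, filters, thresholds, halved counts, the replicate block and each sample left out.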

Additional observations from a re-analysis of the deposited data

How the results depend on the processing

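Under 14 alternative fits, 32 of the 43 genes had the same sign and the same call throughout, and 2 of the 32 lower genes (Cenpw and Cenpq) lost their call under some of these fits. The number of lower genes was 30 to 33 with 1 sample left out and 39 with library size scaling, which moved the median of all genes by -0.11. Relative to the median of all genes under that scaling, the 43 genes had a median of -0.84, and the 7 genes it added lay between -0.19 and -0.09. The share of lower genes among all calls was 46.2% with TMM, 56.5% with upper quartile scaling and 72.9% with library size scaling. Over all genes tested, 2757 of 19015 were lower with TMM and 4884 of 19015 with library size scaling. With 1 sample left out, between 2048 and 3065 of all genes tested were lower. The median over the 43 genes was -0.88 with upper quartile scaling, -0.95 with library size scaling, and between -0.84 and -0.77 with 1 sample left out, the latter without normal-glucose replicate 1. When a change of at least 1 on the log2 scale was required, 13 of the 43 genes were lower and 0 higher, as were 11 and 0 of the 59 pathway genes. The pathway genes called higher numbered 1 with library size scaling, 2 without the filter, 2 at an adjusted p under 0.01 and 2 to 6 with 1 sample left out. The sign of Cenpx, which was never called, turned with upper quartile scaling (-0.022), library size scaling (-0.094) and the stricter filter (-0.0042), and its value lay between -0.0072 and 0.017 with 1 sample left out. Mad1l1, also never called, lay between -0.055 and 0.037 with 1 sample left out. None of the 14 ratios moved by the larger group SD when 1 sample was left out. With 3 samples per group that outcome was fixed by arithmetic, so it says nothing about how stable the ratios are.

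Same-numbered samples did not deviate together (correlations of -0.07, 0.04 and 0.04 across genes), so the numbers were not treated as a pairing. With the replicate number as a block, 31 of the 43 genes were lower and 1 was higher, with a median of -0.83, and 26 pathway genes were lower and 5 higher. Over all 19015 genes tested, 2418 were lower and 2909 higher with the block, against 2757 and 3212 without it. The block ended the call of Cenpw (edgeR adjusted p = 0.0626). Why these settings differ was not tested. Counts of 3 in a sample correspond to at most 0.0258 CPM, far below every level given for the 43 genes.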
